A study of Mus musculus with 18 samples.

Results

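The question addressed here was whether macrophages that lack Wbp7 respond to 2 h of lipopolysaccharide (LPS) differently from macrophages that keep 1 copy. The cells were primary macrophages grown from mouse bone marrow and used on day 7 of differentiation, from mice of a mixed background (94% C57BL/6, 6% 129/Ola). The Wbp7-/- (KO) cells and the Wbp7+/- (HET) cells were left untreated or received 10 ug/ml LPS for 2 h, with 3 arrays in each of these 4 groups, so that 12 of the 18 Affymetrix gene arrays of the study entered the comparison. Wild-type cells were not analysed here, and the HET cells also lack a copy of the gene. For each replicate number and genotype, called a culture here, the response was the deposited log2 value at 2 h minus that of the untreated array. The 3 responses of KO were then compared with the 3 of HET over the 21137 probe sets, of 25344 deposited, that were assigned to a single gene, in a linear model across all of them (limma) with culture as a block. A probe set was called where the Benjamini-Hochberg adjusted p over all 21137 was under 0.05. The other 6 arrays, taken at 4 h, entered only the estimate of the spread and the comparisons with 4 h. The labels do not say whether the replicates came from separate mice. The p-values of the responses therefore measure only the spread of the responses between these cultures. The level of each culture is taken out, and the spread is pooled over the untreated, 2 h and 4 h arrays.

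LPS, a component of the outer membrane of Gram-negative bacteria, is sensed by macrophages through Tlr4 together with Ly96 and the GPI-anchored co-receptor Cd14. The signal runs through the adaptors Myd88 and Ticam1 to NF-kB, MAP kinases and interferon regulatory factors. Genes for cytokines, chemokines and interferon beta follow, and a later wave of genes is driven by the secreted interferon itself. Wbp7, also named Kmt2b or Mll2, is a methyltransferase for lysine 4 of histone H3, a mark of active promoters. Pigp, which is part of the enzyme complex that starts GPI anchor synthesis, is known as one of its targets in macrophages.

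The macrophage markers Adgre1, Cd68, Csf1r, Itgam, Lyz2 and Fcgr1 had log2 signals from 12 to 14.3 in all 12 arrays. The Kmt2b probe set had untreated signals of 10.35, 10.41 and 10.47 in KO cells, against 10.97, 10.49 and 10.51 in HET cells. At 2 h the signals were 10.73, 10.42 and 10.66 in KO cells, against 10.69, 10.96 and 10.32 in HET cells, so that the genotypes overlapped. Which stretch of the transcript the probe set reads is not stated in the labels or files, so it does not check the genotype labels. The HET arrays of replicate 1 stood apart: their differences to the other arrays of the group had SDs of 0.43 to 0.53 log2 units over all probe sets, against 0.18 to 0.28 for the other pairs. In this culture the genes of a cell cycle list were lower than in the other HET cultures by a median of 2.87 log2 units untreated and 2.60 at 2 h. Counts are therefore also given without it. Precision is set by the small number of arrays.

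The response to LPS was smaller in KO macrophages for every probe set that was called. Of the 21137 probe sets, 35 (0.166%) were called, for 32 genes. The 26 with a lower value in KO (0.123%, 23 genes) were all induced by LPS on average over the genotypes, and their induction was smaller in KO. The 9 with a higher value (0.0426%, 9 genes) were all repressed by LPS on average, and their repression was smaller in KO. No called probe set had a larger response in KO than in HET, in either direction.

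The genes with smaller induction in KO included those for the cytokines Il6, Il15, Il18, Ifnb1 and Tnfsf15, the chemokine Cxcl11 and the nitric oxide synthase Nos2. Those with smaller repression included the transcription factors Fos and Klf10 and the cannabinoid receptor gene Cnr2. The KO response divided by the HET response had a median of 0.40 over the 35 probe sets (range -0.07 to 0.81) and was under 0.5 in 21 of them. The difference was at least 2-fold in 25. The 35 were chosen by a test of these same responses, so the shares that follow describe them and are no separate support. In all 35 the 3 KO responses lay to the same side of the 3 HET responses, against 15.7% of all probe sets. The HET response itself was called in all 35 and the KO response in 29, against 27% and 7.9% of all probe sets. Before LPS the genotypes differed by less than 0.5 log2 units in 33 of the 35. None of the 35 was called for KO minus HET in untreated cells, which is close to the 0.454% of all probe sets. At 2 h 32 of them were called, against 2.77% of all probe sets.

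The count rests on the culture block and changed with each culture left out. With no replicate block no probe set was called by limma (smallest adjusted p = 0.0583, with 1170 probe sets at an unadjusted p under 0.05), and without HET replicate 1 the counts were 6 lower and 1 higher. No probe set was called without KO replicate 1 or without KO replicate 2 (1584 and 2277 at an unadjusted p under 0.05). Without HET replicate 2, by contrast, 220 lower and 166 higher were called, with all 35 among them. The direction of all 35 was the same under each of these settings, but it could not have turned there. Leaving out the block keeps the estimate, and responses that do not overlap keep their order without 1 culture.

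**Figure D1:**
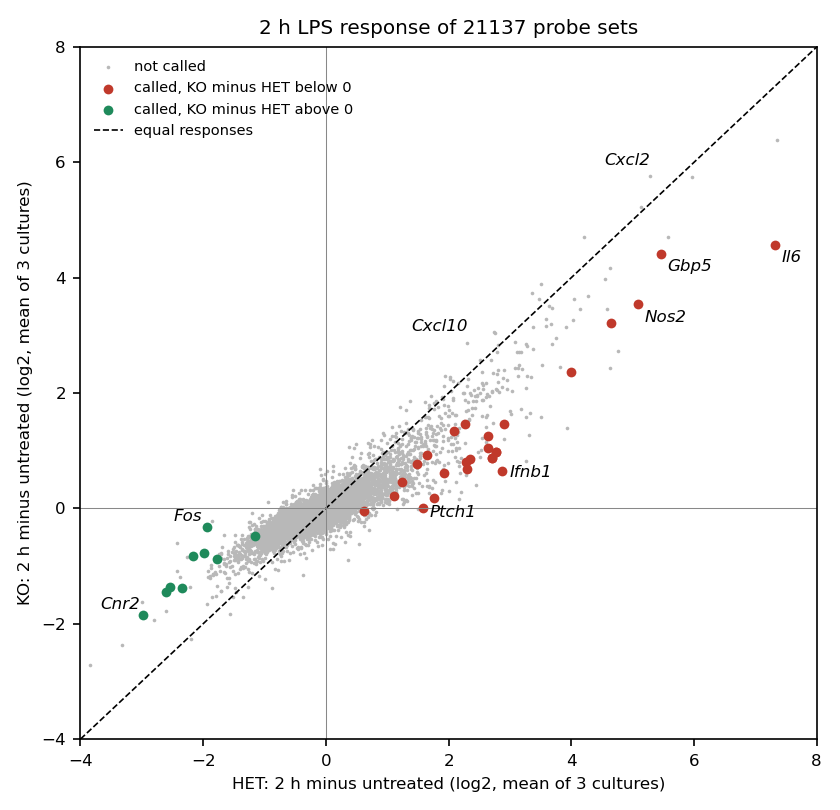
Response to 2 h of LPS in KO (vertical axis) and HET (horizontal axis) macrophages, each the mean of 3 cultures in log2 units, for every probe set with a single gene; called probe sets are marked by direction. All 35 called probe sets lie closer to 0 on the KO axis than on the HET axis, below the diagonal where LPS induced them and above it where LPS repressed them.

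Promoter sequences are shown for 4 of the induced genes, because these carry the comparison: Il6 and Ifnb1 had the largest differences of the named cytokine genes (they were added after the values were seen), and Rasgrp1 and Abtb2 had among the smallest p-values. Each run is the 250 bases before the annotated start from RefSeq (GRCm38.p6), written 5' to 3' on the strand of the gene, with matches to the searched motifs on either strand in capitals. The motifs were GGG and CC with any 5 bases between them (of the NF-kB type), GAAA and GAAA with any 2 bases between them (interferon-response type), TGANTCA (AP-1 type), TGACGTCA (CRE type), TTCNNNGAA (STAT type) and TATAAA, and overlapping matches run together. The regions are chr5:30012864-30013113 on the plus strand for Il6, chr4:88522795-88523044 on the minus strand for Ifnb1, chr2:117342878-117343127 on the minus strand for Rasgrp1 and chr2:103566060-103566309 on the plus strand for Abtb2.
Il6: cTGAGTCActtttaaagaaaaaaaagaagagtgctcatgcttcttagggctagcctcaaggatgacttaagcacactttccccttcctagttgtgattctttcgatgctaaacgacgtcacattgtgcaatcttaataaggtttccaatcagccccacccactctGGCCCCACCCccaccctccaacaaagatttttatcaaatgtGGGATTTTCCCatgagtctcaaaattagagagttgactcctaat
Ifnb1: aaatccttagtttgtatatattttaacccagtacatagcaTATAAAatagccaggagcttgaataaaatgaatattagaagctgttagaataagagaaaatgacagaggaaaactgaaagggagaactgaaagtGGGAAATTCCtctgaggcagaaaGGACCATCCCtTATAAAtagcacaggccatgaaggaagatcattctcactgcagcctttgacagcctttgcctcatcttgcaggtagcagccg
Rasgrp1: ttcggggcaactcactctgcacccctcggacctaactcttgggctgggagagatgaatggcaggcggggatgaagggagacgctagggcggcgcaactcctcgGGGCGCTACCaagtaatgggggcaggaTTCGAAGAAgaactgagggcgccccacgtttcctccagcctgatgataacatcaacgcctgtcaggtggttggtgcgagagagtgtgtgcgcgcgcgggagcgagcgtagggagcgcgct
Abtb2: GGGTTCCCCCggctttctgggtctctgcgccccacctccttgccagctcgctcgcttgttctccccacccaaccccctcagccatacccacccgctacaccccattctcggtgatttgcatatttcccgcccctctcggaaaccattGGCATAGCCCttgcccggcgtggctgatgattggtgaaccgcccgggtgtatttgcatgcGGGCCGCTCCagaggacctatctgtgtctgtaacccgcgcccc
The Il6 window holds 3 matches to the NF-kB type motif and 1 to TGANTCA, and the Ifnb1 window 2 matches to it and 2 to TATAAA. Rasgrp1 has 1 match each to the NF-kB type motif and TTCNNNGAA, and Abtb2 has 3 to the NF-kB type motif. The Il6 and Ifnb1 windows hold 3 and 1 CpG, against 21 and 16 in the Rasgrp1 and Abtb2 windows, so that genes of low and of high CpG content are both among those called.

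The windows of the called genes were also set beside those of all tested genes, with no test. An entry was found for 18 genes called lower, 7 called higher and 15456 tested genes in all. The median number of CpG was 10.5 in the genes called lower and 15 in those called higher, against 11 in all tested genes. The NF-kB type motif was found in 55.6% and 57.1%, against 53.4% of all tested genes. The interferon-response type motif was found in 2 of the 18 genes called lower (11.1%) and in none of the 7 called higher, against 2.92% of all tested genes and 10.5% of the 295 genes with an entry that were induced at least 2-fold on average. A match is a description of the letters and not a site. Zhx2 and Pwwp2b had no entry.

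Il6 encodes interleukin 6, a cytokine of fever and the acute phase response, and had the largest difference of all tested probe sets that were lower in KO. Its signal at 2 h was 9.49, 9.46 and 9.56 in the KO cultures, against 12.98, 11.59 and 12.74 in the HET cultures, with no overlap. Untreated cells had 4.86, 5.10 and 4.83 in KO, against 5.09, 5.22 and 5.03 in HET. LPS thus raised Il6 by 23.8-fold in KO and by 160-fold in HET. The difference of the responses was -2.75 log2 units (SE 0.361, limma adjusted p = 0.0185, n = 3 cultures per genotype), a 6.72-fold smaller induction.

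Ifnb1 encodes interferon beta, which acts back on the macrophage through its receptor. At 2 h its signal was 7.08, 6.89 and 6.65 in KO cells, against 9.81, 8.78 and 8.68 in HET cells. In untreated cells it was 6.28, 6.15 and 6.23 in KO and 6.45, 6.04 and 6.13 in HET, so that the groups overlapped before LPS and separated after it. The induction was 1.58-fold in KO, which was not called by itself (limma adjusted p = 0.12), and 7.34-fold in HET. The difference was -2.22 log2 units (SE 0.332, adjusted p = 0.0229).

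The interleukins had lower values of the response in KO. Of the 17 measured members of this list, 10 were induced at least 2-fold on average, a class where 87.8% of probe sets had a smaller KO response. All 17 had a smaller value of the response in KO, against 8243 of the 19475 genes tested with 1 probe set each. The median response was 0.79 in KO and 1.65 in HET, and the median difference -0.87, against 0.03 over all genes; without HET replicate 1 it was -0.54. Il6, Il15 and Il18 were called lower and none higher, against 0.113% lower and 0.0462% higher of all genes. In 8 of the 17 all KO cultures lay below all HET cultures. The shares were 5.37% of all genes and 41.3% of the probe sets induced at least 2-fold on average.

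Il15 supports natural killer cells and memory T cells. Its response was 1.24, 0.88 and 1.63 log2 units in KO, against 3.07, 2.18 and 2.68 in HET (difference -1.40, SE 0.21, adjusted p = 0.0229). Il18, which is released after cleavage by caspase 1, responded by 0.81, 0.60 and 0.89 in KO, against 1.56, 1.29 and 1.62 in HET (difference -0.73, SE 0.127, adjusted p = 0.0475). Neither gene's responses overlapped between genotypes.

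Other interleukins had large differences that were not called. Il27, a cytokine with Ebi3 as its partner subunit, responded by 1.65 in KO and 3.33 in HET (difference -1.68, SE 0.351, adjusted p = 0.0835). Il10, an anti-inflammatory cytokine, responded by 1.72 in KO and 3.18 in HET, with cultures that overlapped (difference -1.46, adjusted p = 0.389). Il1b, by contrast, had mean responses of 5.75 in KO and 5.97 in HET.

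**Figure D2:**
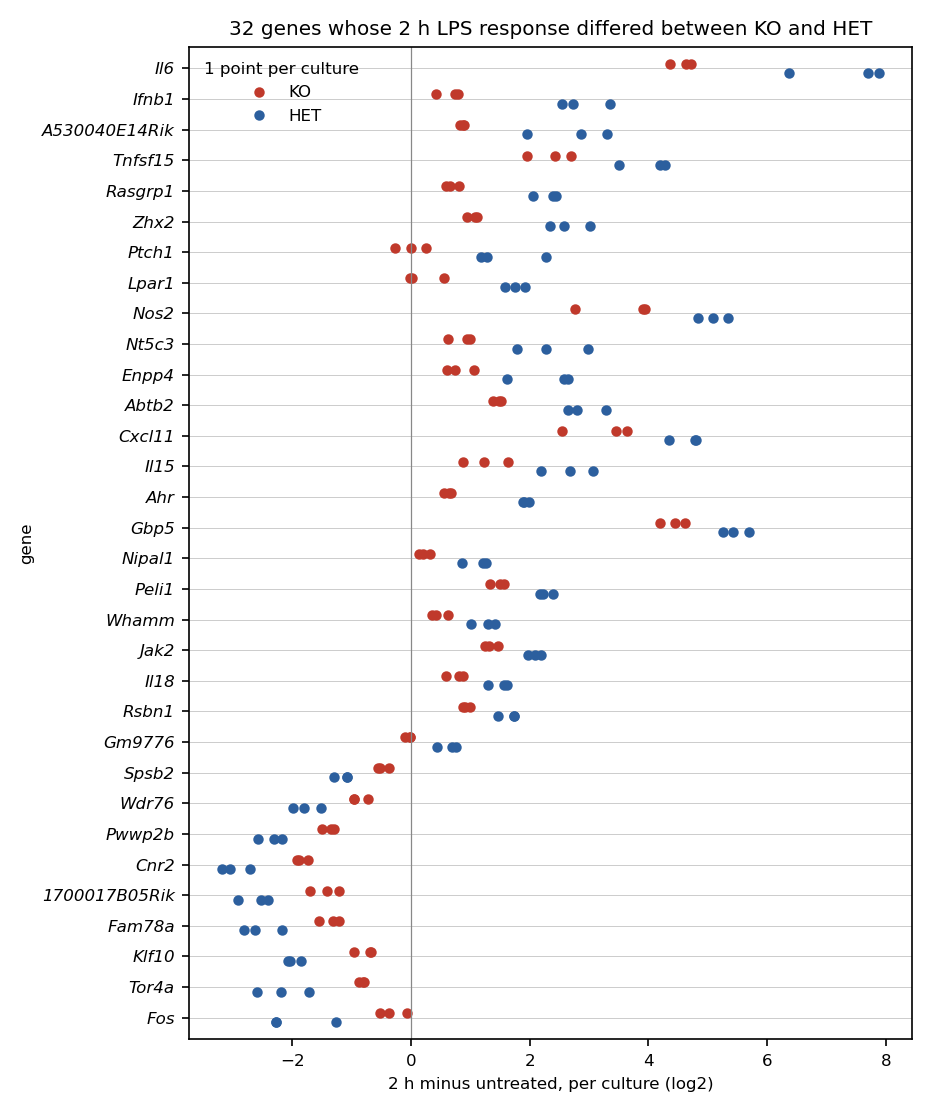
Response to 2 h of LPS (log2 units, horizontal axis) of each called gene in every culture, with KO cultures in 1 colour and HET cultures in the other. The 3 KO values of each gene lie on the side nearer to 0 and do not overlap the 3 HET values, for the 23 induced and the 9 repressed genes.

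Among the TNF superfamily and colony-stimulating factors only Tnfsf15, a T cell costimulating cytokine also named TL1A, was called. The share called lower was 0.113% of all genes. Tnfsf15 responded by 2.69, 1.95 and 2.43 in KO, against 4.19, 3.51 and 4.28 in HET (difference -1.64, SE 0.247, adjusted p = 0.0229). Tnf itself, the founding member of the family, had mean responses of 2.21 in KO and 2.06 in HET. Of the 22 measured members, 9 were induced at least 2-fold on average, a class where 87.8% of probe sets had a smaller KO response. The list had 15 differences below 0, against 8243 of 19475 genes. The median difference was -0.13, and it was -0.26 without KO replicate 1, -0.25 without HET replicate 3 and -0.22 with dim probe sets left out.

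Of 22 chemokines, 13 were induced at least 2-fold on average, a class where 87.8% of probe sets had a smaller KO response. In the list 1 was called lower, against 0.113% of all genes, and 17 differences lay below 0, against 8243 of 19475. The median difference was -0.22, but it was -0.03 without KO replicate 2 and -0.04 without HET replicate 2. Cxcl9, Cxcl10 and Cxcl11 are known as genes for ligands of the receptor Cxcr3, and their RNA responses differed from each other here. Whether a working protein was made was not measured. Cxcl11 responded by 3.64, 2.54 and 3.46 in KO, against 4.81, 4.78 and 4.34 in HET (difference -1.43, SE 0.243, adjusted p = 0.0418). Cxcl9 had a larger difference, -2.19, but a wider spread (SE 0.411, adjusted p = 0.0606), with 2.78, 1.89 and 2.65 in KO, against 4.37, 3.90 and 5.62 in HET. For Cxcl10 the mean response was 2.87 in KO and 2.30 in HET (difference 0.58, 95% interval -0.01 to 1.16, adjusted p = 0.438). The neutrophil attractant Cxcl2 also had a higher mean in KO, 5.76, against 5.29 in HET (adjusted p = 0.703).

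Of the 31 measured effector genes, the enzymes and mediators made later in the response, 25 were induced at least 2-fold on average. Of all probe sets in that class 87.8% had a smaller KO response. In the list 25 had a difference below 0, against 8243 of 19475 genes. The median response was 1.96 in KO and 2.45 in HET. Nos2, which makes nitric oxide, was the 1 member called, against 0.113% of all genes called lower. Its signal at 2 h was 11.32, 10.07 and 11.29 in KO, against 12.74, 12.23 and 11.91 in HET. The induction was 11.6-fold in KO and 34.2-fold in HET (difference -1.56, SE 0.256, adjusted p = 0.0372). Ptgs2, the inducible cyclooxygenase, responded by 3.46 in KO and 4.59 in HET and was not called.

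Edn1, which encodes the vasoconstrictor endothelin 1, and F3, which encodes tissue factor, the starter of the clotting cascade, differed by more than 2 log2 units but were not called. Edn1 responded by 2.62, 2.36 and 3.20 in KO, against 5.83, 3.70 and 4.74 in HET (adjusted p = 0.0779). F3 responded by 0.35, 0.57 and 0.28 in KO, against 3.82, 1.59 and 1.96 in HET (adjusted p = 0.116). In both genes the HET culture of replicate 1 was the highest.

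The interferon-induced GTPases, which act on membranes around intracellular pathogens, had a median response of 1.00 in KO and 2.44 in HET. Of the 8 measured members, 6 were induced at least 2-fold on average, a class where 87.8% of probe sets had a smaller KO response. All 8 had differences below 0 (median -0.86, and -0.53 without HET replicate 1). Gbp5 was the 1 member called, against 0.113% of all genes called lower. It responded by 4.61, 4.20 and 4.44 in KO, against 5.43, 5.26 and 5.69 in HET (difference -1.04, SE 0.183, adjusted p = 0.0479). Its untreated signal was also 0.69 log2 units lower in KO. Iigp1 had a signal at 2 h of 6.62, 6.73 and 7.38 in KO, against 11.69, 8.87 and 10.28 in HET, and a difference of -2.44 (SE 0.47, adjusted p = 0.0692).

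Of 40 measured antiviral genes, also induced by interferon, none was called, against 0.113% lower and 0.0462% higher of all genes. In this list 22 were induced at least 2-fold on average, a class where 87.8% of probe sets had a smaller KO response. The list had 32 differences below 0, against 8243 of 19475 genes. The median response was 0.97 in KO and 1.35 in HET. The median difference was -0.22, and it was -0.39 without HET replicate 2, -0.34 without KO replicate 2 and -0.08 without HET replicate 3. Ifit1 responded by 2.58 in KO and 2.52 in HET, and Rsad2 by 2.36 and 2.55. Tlr3, which senses double-stranded RNA inside endosomes, responded by 0.07 in KO and 1.03 in HET (difference -0.96, adjusted p = 0.101). At 2 h its signal was 8.37, 8.01 and 8.08 in KO, against 10.86, 10.13 and 10.58 in HET, but untreated cells already differed, with 8.45, 8.12 and 7.67 in KO, against 9.40, 9.58 and 9.50 in HET. For this list the HET culture of replicate 1 was higher than the other HET cultures by a median of 0.59 log2 units both untreated and at 2 h, and without it the list's median difference was -0.26.

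Markers of other cells that the cultures could hold were set beside these values. No measured marker of neutrophils and progenitors, lymphocytes, dendritic cells, erythroid, mast and basophil cells, or stromal and endothelial cells was called for the response. Of all genes, 0.113% were called lower and 0.0462% higher. The summed linear signal of the 12 dendritic cell markers at 2 h was 2217 to 2966 in KO, against 2155 to 4904 in HET. The 18 markers of neutrophils and progenitors summed to 6482 to 9270 in KO at 2 h, against 6374 to 10440 in HET. The 11 erythroid, mast and basophil markers summed to 1258 to 1378 in KO, against 1243 to 1439 in HET, and the 14 stromal and endothelial markers to 4129 to 5515 in KO, against 4061 to 5618 in HET. These 4 ranges overlapped, whereas the 16 lymphocyte markers summed to 2758 to 2906 in KO, against 2509 to 2563 in HET, with 6 of the 16 below the lower quartile of signal in all 12 arrays. Their part in the differences was not tested. In such bulk RNA, a change in the number of responding cells and a change in RNA per cell cannot be told apart.

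Jak2 was called with a smaller difference, and its responses varied little between the cultures of a genotype. This kinase carries signals from the receptors for interferon gamma and several cytokines. It responded by 1.46, 1.25 and 1.32 in KO, against 2.18, 2.10 and 1.97 in HET (difference -0.74, SE 0.101, adjusted p = 0.0195). Its KO minus HET difference at 2 h, from the model with no block, was -0.60 and was not called (limma adjusted p = 0.211). Socs1, an inhibitor of Jak kinases, responded by 1.68 in KO and 3.01 in HET (difference -1.32, SE 0.265, adjusted p = 0.0757). Of the 23 measured genes of interferon beta, its receptors and factors, 2 were called lower, against 0.113% of all genes. Their median difference was -0.19, and -0.11 without HET replicate 1 or with quantile normalization.

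Several called genes encode signalling proteins outside the cytokine lists. Rasgrp1, an activator of Ras proteins that responds to diacylglycerol, had a 2 h signal of 7.98, 7.61 and 8.03 in KO, against 9.91, 9.28 and 9.57 in HET. Untreated signals were 7.33, 7.01 and 7.21 in KO and 7.47, 7.22 and 7.18 in HET. The responses did not overlap (difference -1.61, SE 0.163, adjusted p = 0.00304).

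Lpar1, a receptor for lysophosphatidic acid, was induced in HET and not called as induced in KO. It responded by -0.02, 0.02 and 0.56 in KO, against 1.58, 1.92 and 1.76 in HET (difference -1.57, SE 0.197, adjusted p = 0.0149). Ptch1, the receptor for Hedgehog ligands, gave the same picture, with 0.25, 0.01 and -0.26 in KO, against 2.28, 1.28 and 1.19 in HET (difference -1.59, SE 0.253, adjusted p = 0.0345). Peli1, a ubiquitin ligase of the Toll-like receptor pathways, was among the genes induced in both genotypes, by 2.76-fold in KO and 4.80-fold in HET (adjusted p = 0.0195).

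Transcription regulators were called in both directions. Zhx2, a zinc finger and homeobox protein, responded by 1.11, 0.94 and 1.08 in KO, against 3.02, 2.58 and 2.34 in HET (difference -1.60, SE 0.164, adjusted p = 0.00304). Ahr, the ligand-activated aryl hydrocarbon receptor, responded by 0.55, 0.64 and 0.67 in KO, against 1.88, 1.98 and 1.90 in HET (difference -1.30, SE 0.205, adjusted p = 0.031). The SD of the Ahr response was 0.0633 in KO and 0.0539 in HET, far less than the difference between genotypes.

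Abtb2, an ankyrin repeat and BTB domain protein, responded by 1.39, 1.51 and 1.48 in KO, against 3.28, 2.64 and 2.80 in HET (difference -1.45, SE 0.154, adjusted p = 0.00318). A530040E14Rik had 4 called probe sets, which formed 2 pairs with identical values on all 18 arrays and so are not 4 separate measurements; the probe set with the smallest p gave a difference of -1.84 (SE 0.258, adjusted p = 0.0195). The remaining genes called lower were the nucleotidase gene Nt5c3 (-1.50), Enpp4 of the ectonucleotide pyrophosphatase family (-1.47), Nipal1 (-0.89), Whamm, which promotes actin assembly (-0.78), Rsbn1 (-0.72) and Gm9776 (-0.67). Peli1, Whamm, Nipal1, Rsbn1 and Gm9776 fell outside the naming rule and are given after their values were seen, to make the called genes complete.

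Fos, a subunit of the AP-1 transcription factor that is induced within minutes of a stimulus in many cells, was below its untreated level at 2 h in every culture. Its signal at 2 h was 9.93, 10.19 and 10.68 in KO, against 9.04, 8.35 and 9.17 in HET, and in untreated cells 10.30, 10.70 and 10.75 in KO, against 11.31, 10.62 and 10.43 in HET. The response was thus -0.36, -0.51 and -0.07 in KO, against -2.28, -2.26 and -1.26 in HET. The difference was 1.62 (SE 0.272, adjusted p = 0.0408), and the repression in KO was not called by itself (adjusted p = 0.379).

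Myc, which drives growth and ribosome production, had the same direction and a wider spread. Its response was -0.28, -0.05 and -0.30 in KO, against -2.63, -1.26 and -1.69 in HET, without overlap (difference 1.64, SE 0.434, adjusted p = 0.151). Sesn1, a stress-induced regulator of growth signalling, had -0.59, -0.66 and -0.53 in KO, against -3.71, -1.78 and -1.77 in HET (difference 1.82, SE 0.407, adjusted p = 0.101). For both genes the strongest HET repression was that of replicate 1.

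Klf10, a Krueppel-like transcription factor known from TGF-beta signalling, responded by -0.97, -0.67 and -0.70 in KO, against -2.04, -2.07 and -1.84 in HET (difference 1.21, SE 0.203, adjusted p = 0.0408). Cnr2, the cannabinoid receptor of immune cells, responded by -1.89, -1.74 and -1.93 in KO, against -3.18, -2.71 and -3.06 in HET (difference 1.13, SE 0.198, adjusted p = 0.0475). Spsb2, a ubiquitin ligase adaptor that targets the Nos2 protein, responded by -0.52, -0.37 and -0.56 in KO, against -1.29, -1.07 and -1.08 in HET (difference 0.66, SE 0.0966, adjusted p = 0.0229). The others were Tor4a of the torsin family (1.35), Fam78a (1.18), 1700017B05Rik (1.17), Pwwp2b (0.97) and Wdr76 (0.89), and all 9 stayed below their untreated mean in KO.

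Over the probe sets that LPS changed by at least 2-fold on average, the median response was smaller in KO, and few of them were called. Over all called responders, with no fold minimum, the difference was smaller, -0.0962 over 2651 induced and 0.236 over 3883 repressed probe sets. The 395 probe sets (376 genes) whose response averaged over KO and HET was called and was an induction of at least 2-fold had median responses of 1.47, 1.08 and 1.36 log2 units in the KO cultures, against 2.20, 1.77 and 1.85 in the HET cultures. The means were 1.31 ± 0.20 in KO and 1.94 ± 0.23 in HET (SD, n = 3 each), a difference of -0.63, and the groups did not overlap. The KO response was smaller in 347 of the 395 (87.8%), against 67.8% of all probe sets. The median of the KO response over the HET response was 0.73, with quartiles of 0.57 and 0.87. In 163 (41.3%) all KO cultures lay below all HET cultures, and in 1 (0.253%), Btg2, an antiproliferative gene, all KO cultures lay above, against 5.49% and 10.2% of all probe sets.

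The 144 probe sets (141 genes) repressed at least 2-fold had medians of -0.89, -0.95 and -0.99 in KO, against -1.91, -1.36 and -1.41 in HET. The means were -0.94 ± 0.05 in KO and -1.56 ± 0.31 in HET (SD, n = 3 each), and the KO response was smaller in 136 of the 144 (94.4%). In 86 (59.7%) all KO cultures lay above all HET cultures, and in none below. Without HET replicate 1 the difference was -0.50 on the induced side and 0.44 on the repressed side. With 3 cultures against 3 an exact permutation test cannot reach 0.05, and none was run on these medians.

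The cultures also differed in how many probe sets moved at all. A change over 2-fold was seen in 404, 321 and 429 probe sets in KO, against 1685, 707 and 819 in HET. The SD of the response over all probe sets was 0.35 to 0.36 in KO, against 0.45 to 0.61 in HET, where replicate 1 was the highest in both measures.

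**Figure D3:**
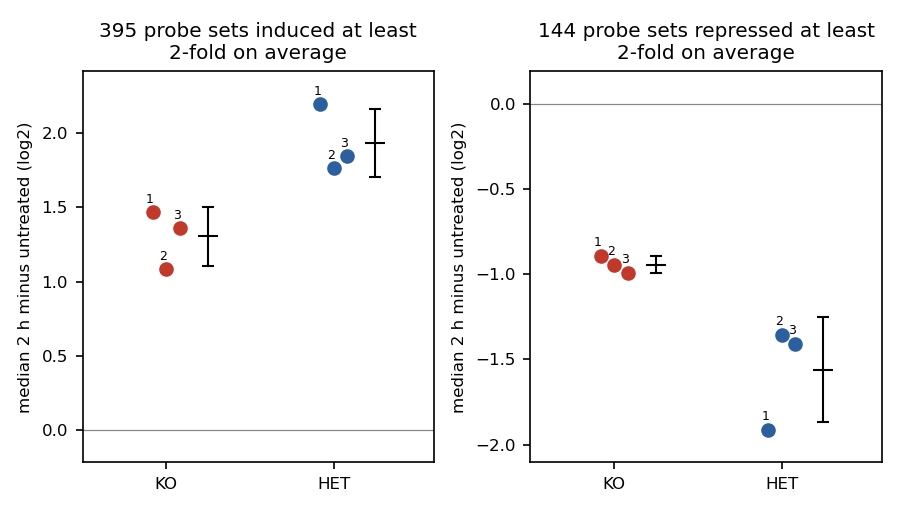
Median response to 2 h of LPS (log2 units, vertical axis) of each culture, numbered by replicate, over the 395 probe sets induced and the 144 repressed at least 2-fold on average, KO to the left of HET. All 3 KO cultures lie nearer to 0 than all 3 HET cultures in both sets.

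Not every strongly induced gene had a smaller response in KO. The mean response was larger in KO for 48 induced and 8 repressed probe sets of these sets, and none of the 56 was called. Besides Cxcl10 and Cxcl2, the means were larger in KO for the acute-phase gene Saa3 (4.71 in KO and 4.21 in HET), the chemokine Ccl5 (3.89 and 3.51), Acod1, which makes itaconate (3.73 and 3.36), and the inflammasome sensor Nlrp3 (2.30 and 1.95). The intervals of these differences include 0, for example -0.33 to 1.28 log2 units for Cxcl2 and -0.38 to 1.16 for Ccl5. A p above the threshold does not show that these genes responded alike.

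No gene of the LPS signal itself was called for a difference of the response, against 0.113% lower and 0.0462% higher of all genes. For the 12 genes of the receptor complex the median difference was 0.06, a sign that turned when arrays were centred on their medians (-0.0017), with array weights (-0.04) and without HET replicate 1 (-0.03). Tlr4 was below its untreated level in every culture, with responses of -1.24, -0.82 and -1.29 in KO, against -1.32, -1.84 and -0.46 in HET (difference 0.09, 95% interval -0.68 to 0.85, adjusted p = 0.959). Cd14 had signals of 13.49, 13.34 and 13.37 in KO at 2 h, against 13.92, 13.57 and 13.50 in HET. Its response was 1.01, 1.01 and 0.90 in KO, against 0.89, 1.28 and 1.20 in HET (difference -0.15, 95% interval -0.42 to 0.13, adjusted p = 0.73). The 23 measured adaptors and kinases had a median difference of 0.03, a sign that turned with arrays centred on their medians, with quantile normalization, with dim probe sets left out and without HET replicate 2.

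The NF-kB subunits and inhibitors, which are themselves NF-kB targets, had median responses of 1.68 in KO and 1.97 in HET. Of the 14 measured, 11 were induced at least 2-fold on average, a class where 87.8% of probe sets had a smaller KO response. The list had 11 of 14 differences below 0, against 8243 of 19475 genes, and none called. The median difference was -0.25, but it was -0.06 without KO replicate 2, -0.10 with array weights and -0.16 without HET replicate 1. Nfkbia, the inhibitor that LPS destroys and resynthesises, responded by 2.17 in KO and 2.15 in HET, and Nfkbie by 2.83 and 2.80. Rel, a subunit with a role in cytokine gene induction, responded by 1.11 in KO and 1.62 in HET with all KO cultures below all HET cultures. Of 29 immediate early factors Fos was the only one called, against 0.113% lower and 0.0462% higher of all genes. The median difference of these factors was -0.06, between -0.12 with arrays centred on their medians and 0.02 with array weights.

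Pigp had lower signals in all KO arrays than in all HET arrays both before LPS and at 2 h. Its untreated signal was 8.34, 8.56 and 8.40 in KO, against 8.98, 8.93 and 9.07 in HET, and at 2 h 8.79, 8.84 and 8.60 in KO, against 9.21, 9.01 and 9.15 in HET. The difference of the responses was 0.18 (95% interval -0.10 to 0.46, adjusted p = 0.662). Of the 28 GPI anchor biosynthesis genes none was called for the response, against 0.113% lower and 0.0462% higher of all genes. Pigv, a mannosyltransferase of the pathway, was the one member with a mean induction over 1 log2 unit, 0.84 in KO and 1.42 in HET (adjusted p = 0.179). The 25 genes of GPI-anchored proteins had a median difference of -0.06, between -0.12 with arrays centred on their medians and -0.02 without KO replicate 2, with none called.

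**Figure D4:**
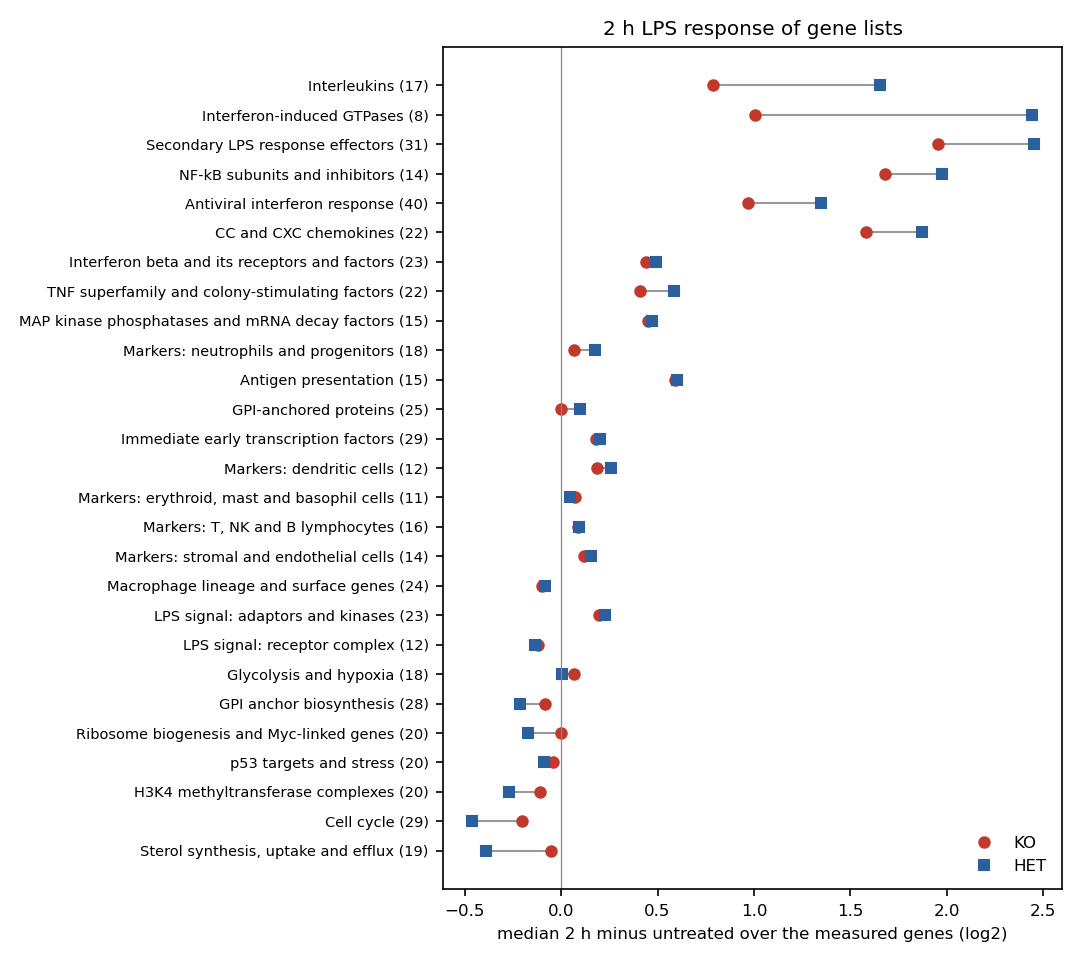
Median response to 2 h of LPS (log2 units, horizontal axis) of each gene list in KO and HET, over the list's measured genes (their number in brackets), each gene's response being the mean of 3 cultures. The interleukins and the interferon-induced GTPases, with list medians of 0.79 and 1.00 in KO, against 1.65 and 2.44 in HET, are spread farthest between the genotypes.

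All 19 genes of sterol synthesis, uptake and efflux had a higher value in KO, whereas 8243 of the 19475 genes tested had a lower one. Of the probe sets called as repressed on average, with no fold minimum, 92.6% had a smaller KO response. The median response of the list was -0.06 in KO and -0.39 in HET. The median difference was 0.38 (0.19 without HET replicate 1). None was called, against 0.113% lower and 0.0462% higher of all genes. In 6 of the 19 all KO cultures lay above all HET cultures, against 10.6% of all genes. The cell cycle genes had a median response of -0.20 in KO and -0.47 in HET, with 10 of 29 members above in all KO cultures and none called. The HET culture of replicate 1 had much lower levels of these genes. The median difference was 0.21, and 0.14 without that culture. The 20 genes of H3K4 methyltransferase complexes, to which Wbp7 belongs, had 17 differences above 0 and 3 below 0. Of all genes, 8243 of 19475 lay below 0. None of the 20 was called, against 0.113% lower and 0.0462% higher of all genes. The median difference of this list was 0.20. It was 0.11 without HET replicate 1 and 0.32 without HET replicate 2.

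At 4 h the difference of the responses was called for 91 of all probe sets (0.431%), against 35 at 2 h. The responses at both times share their untreated arrays and the estimate of the spread. Equal signs and calls at both times are therefore expected in part and do not show that a difference lasted. Of the 35 probe sets called at 2 h, 33 had a 4 h difference of the same sign and 7 were also called at 4 h. These 35 were chosen for their 2 h difference, so a smaller value at 4 h is no result. Il6 had a 4 h response of 8.02, 6.92 and 7.72 in KO, against 8.33, 8.12 and 8.24 in HET, and the difference was -0.68 (SE 0.361, adjusted p = 0.368), against -2.75 at 2 h. Gbp5 differed by 0.01 at 4 h (adjusted p = 0.99) and Il18 by -0.07 (adjusted p = 0.809). The change in the difference between the times was called for 2 of all probe sets (0.00946%) and not for Il6 (adjusted p = 0.143).

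The 7 genes called at both times, from responses that share untreated arrays, were Rasgrp1, Lpar1, Abtb2, Ptch1, Klf10, Zhx2 and Jak2. Rasgrp1 had a difference of -1.79 at 4 h (SE 0.163, adjusted p = 0.000797), against -1.61 at 2 h, and Lpar1 had -1.61 (adjusted p = 0.00892), against -1.57 at 2 h. Abtb2 had -1.43 (adjusted p = 0.00268), Ptch1 -1.32 (adjusted p = 0.0462) and Klf10 1.08 (adjusted p = 0.0449). Zhx2 had -0.95 (adjusted p = 0.0328) and Jak2 -0.56 (adjusted p = 0.0399). Ifnb1 had 4 h responses of 1.20, 0.45 and 0.60 in KO, against 0.92, 1.90 and 1.47 in HET, which overlapped, and every HET culture was below its own 2 h value.

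**Figure D5:**
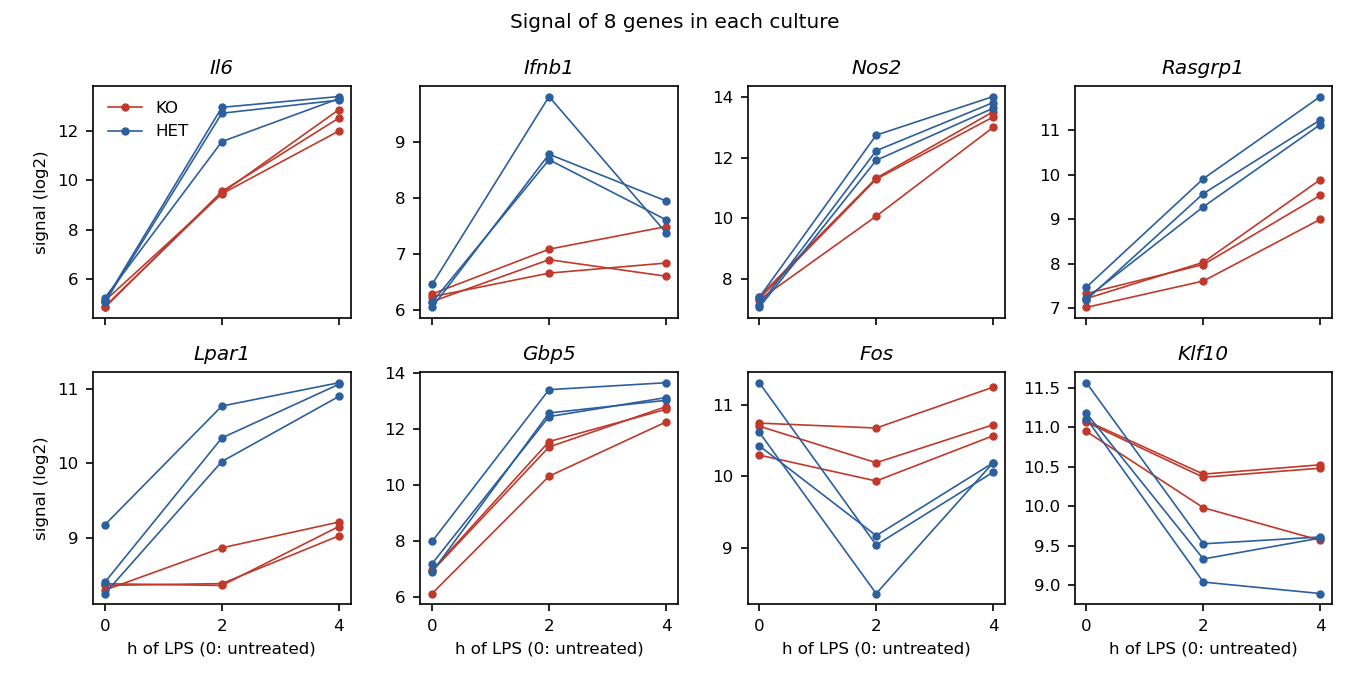
Log2 signal (vertical axis) of selected genes in untreated cells and after 2 h and 4 h of LPS (horizontal axis), with a line for each KO and HET culture. The KO and HET lines of Il6 are farther apart at 2 h than at 4 h, a change that was not called. Those of Rasgrp1 are apart at both times.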

How the data were processed

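RNA of 18 samples was measured on Affymetrix gene arrays. Per the submitters' processing notes, the authors made the deposited log2 values with RMA in Partek 6.5; no further settings are recorded there. The deposited values were analysed with no further scaling. Of 25344 probe sets, 1530 with several genes and 2677 with none were left out, and 21053 of the remaining 21137 matched the RefSeq table by gene ID.

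A linear model with culture (replicate number within genotype) as a fixed block was fitted to the 21137 probe sets with limma 3.58.1 in R 4.3.3 (8 residual degrees of freedom, prior degrees of freedom 4.69, prior SD 0.113). The difference of the 2 h response was a contrast of it, with p-values adjusted by Benjamini-Hochberg; KO minus HET within a time came from a model with no block. The pairing by culture is not stated in the labels. It was read from the data: deviations from the group means correlated at r = 0.321 to 0.794 across probe sets in 18 pairs of arrays of the same number and genotype, and at -0.350 to 0.388 in 27 pairs that shared a number across genotypes. Tested on simulated data, the model recovered 21% of differences of 0.5 log2 units and 82% of those of 1 in the 2 h response, over 21137 probe sets with 4 false calls. For each probe set the simulated noise was normal, independent and equal in size on all arrays. The real arrays were not equal, with HET replicate 1 standing apart, so these rates may be too favourable.

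The members and the 27 gene lists were chosen with earlier results of these data known, so no list is independent evidence. Lists used 1 probe set per gene, the brightest. Genes were named by rule: the 15 lowest and 15 highest called differences; Wbp7, Pigp, Cd14, Tlr4, Il6, Ifnb1, Fos and Myc; of each list up to 6 called members and 2 others; and the 8 largest called differences of each response class. Members used to describe a list or a larger response in KO are given as values. The alternatives were centred or quantile-normalized arrays, dim probe sets left out (below the 40th percentile), other rules for probe sets of a gene, an intensity trend, array weights, a 2-fold minimum, 12 arrays only, other blocks and each culture left out. Plots used matplotlib 3.10.9 under Python 3.11.15.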

Additional observations from a re-analysis of the deposited data

Results flagged for a closer look

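The genotype difference moved between 2 h and 4 h in 2 probe sets by a test of that change itself (4 h minus 2 h in KO, minus the same in HET; 0.00946% of all tested). Cysltr2, a receptor for cysteinyl leukotrienes, had a change of -1.13 (SE 0.135, limma adjusted p = 0.0173). Its signal at 4 h was 5.69, 5.28 and 5.79 in KO, against 7.51, 7.19 and 7.41 in HET, and at 2 h 5.03, 4.69 and 4.83 in KO, against 5.76, 5.37 and 5.38 in HET. Angpt1, a growth factor for the Tie2 receptor, had a change of -1.45 (SE 0.167, adjusted p = 0.0173). Its signal at 4 h was 5.56, 5.30 and 5.35 in KO, against 6.67, 6.86 and 7.25 in HET, while at 2 h it was 5.16, 5.25 and 5.17 in KO, against 5.32, 5.17 and 5.30 in HET. The 2 h signals of both genes were below the lower quartile of the arrays, and neither was called at 2 h.

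Among the 4207 probe sets left out because no single gene was assigned to them, 1 was called when all 25344 were fitted together, a setting chosen after seeing the data, which called 31 in all. This probe set, 10544746, has no gene in the platform's table. Its mean response was -0.60 in KO and -1.82 in HET, a difference of 1.23 (SE 0.158, adjusted p = 0.0193).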

How the results depend on the processing

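All 35 called probe sets had the same sign in every setting in which they were tested, but the number called did not hold. Other blocks and the fit of the 12 arrays leave the estimates unchanged. Leaving out 1 culture cannot turn a difference between responses that do not overlap, so the sign is no check there. Against 26 lower and 9 higher, the counts were 0 and 0 with no replicate block (the pairing by culture left out), 2 and 0 with the replicate number as a block over both genotypes, 8 and 2 in a fit of the 12 arrays only, 41 and 8 with quantile normalization, and 80 and 60 with array weights, whose estimation did not fully converge. With arrays centred on their medians they were 33 and 7. Leaving out 1 culture gave 0 to 220 lower and 0 to 166 higher, and 0 of the 32 genes kept the call in all 6 such fits. The 91 calls of the 4 h difference became 8 with no replicate block, 12 with the block by number, 294 with array weights, 37 with a 2-fold minimum and 3 to 263 without 1 culture. The 2 calls of the change between 4 h and 2 h became 1 with no replicate block, 0 without dim probe sets, 37 with array weights and 0 to 41 without 1 culture.

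The difference in response size kept its direction in all settings, but without 1 culture it could not turn, since culture medians did not overlap. It was -0.0962 over induced and 0.236 over repressed probe sets when no fold minimum was set on the responding set, and without 1 culture it ranged from -0.717 to -0.501 and from 0.439 to 0.718. Of the named genes, 3 that were not called changed sign: Tlr4 (-0.0366 with quantile normalization, -0.103 with array weights, and -0.228 to 0.462 without 1 culture, where -0.0597 was also below 0), Tfec (-0.712 to 0.0757 without 1 culture) and Mki67 (-1.36 to 0.0295), the last 2 only without HET replicate 1. The causes of these changes were not tested. Differences of 0.5 log2 units were mostly missed in simulated data, so that genes not called may differ.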
